A study of Mus musculus with 10 samples.

Results

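The IL-4 receptor chain Il4ra, the transcription factor Stat6, the kinases Jak1, Jak2, Jak3 and Tyk2 and the feedback inhibitors Socs1, Socs2, Socs3 and Cish were followed for CpG methylation in lung DNA. Their members are the 1000-bp windows of the deposited table, placed every 500 bp, that overlap the RefSeq gene span on GRCm38 or its 5-kb flanks. This gave 276 of the 446336 windows, from 12 windows for Socs1 to 40 for Jak3. Neighbouring windows share CpGs, 9 pairs of neighbours held the same calls in every mouse, and 38 of the 276 windows also overlap another RefSeq gene. A further 9 windows had fewer than 20 calls in at least 1 mouse, and such a mouse was left out of that window.

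IL-4 and IL-13, the cytokines of type 2 airway inflammation, bind receptors that share the chain encoded by Il4ra. Receptor chains carry Janus kinases, which phosphorylate the receptor and then STAT6, and STAT6 moves to the nucleus to switch on genes for mucus, IgE and alternatively activated macrophages. SOCS proteins and CISH are made in response to cytokines and shut the receptors and kinases down again. In mammalian genes, CpG islands at start sites are usually free of methylation, whereas methylation inside genes varies with cell type.

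Lung DNA came from female BALB/c mice bought at 8 weeks of age, by SureSelect Methyl-seq, in which probes capture chosen regions and bisulfite separates methylated from unmethylated cytosines. The 3 saline mice received saline in place of allergen. The 3 OVA-induced mice were sensitized with 50 µg of ovalbumin (OVA) with alum on days 0 and 7 and challenged through the nose with 25 µg from day 12 for 4 days. The 4 DSE-treated mice, labelled Herb, had the same OVA regimen and took 200 mg/kg of an ethanol extract of Descurainia sophia seeds (DSE) by mouth from day 9 to day 15. Whole lung holds many cell types, so a change in the share of a cell type and a change of methylation within cells cannot be told apart.

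Total calls per mouse were 306656737 to 410836272 over all windows, and the median over the windows of the 10 genes was 497 to 672.5 calls per mouse. Methylation is given as the percentage of methylated calls. A DMR window had an adjusted p under 0.01 in a logistic likelihood ratio test and pooled calls of the groups that lay 10 or more percentage points apart. That test leaves out the spread between mice, so the adjusted p of limma, fitted on M-values of single mice over all windows, and exact permutation tests are given beside it. The smallest p that such an exact test can give is 0.1 with 3 mice in each group and 0.0571 with 3 and 4 mice.

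To show the sequence behind the positions, a stretch is printed from 6 DMR windows described further on and from a window of Jak2 that passed limma in 2 comparisons with smaller differences. Each is the 200 bases with the most CpGs in its window, or for Jak1 in the part that its window shares with a neighbouring one. Methylation was measured for the window and not for the stretch. They were read from GRCm38.p6 in the direction of the gene, with every CpG in capitals. They lie in Stat6 intron 11 (chr10:127653554-127653753, plus strand), Jak3 exon 6 (chr8:71679574-71679773, plus), Il4ra intron 1 (chr7:125553635-125553834, plus), just 3′ of Socs1 (chr16:10783597-10783796, minus), Tyk2 intron 3 (chr9:21125661-21125860, minus), Jak1 intron 2 (chr4:101192001-101192200, minus) and Jak2 intron 1 (chr19:29253768-29253967, plus). The coding stretch of Jak3 holds 22 CpGs, against 5 to 7 in each of the others.
Stat6: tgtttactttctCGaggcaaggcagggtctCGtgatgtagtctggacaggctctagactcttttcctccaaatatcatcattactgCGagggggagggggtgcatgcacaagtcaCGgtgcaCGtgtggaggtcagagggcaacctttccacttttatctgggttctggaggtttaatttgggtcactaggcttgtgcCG
Jak3: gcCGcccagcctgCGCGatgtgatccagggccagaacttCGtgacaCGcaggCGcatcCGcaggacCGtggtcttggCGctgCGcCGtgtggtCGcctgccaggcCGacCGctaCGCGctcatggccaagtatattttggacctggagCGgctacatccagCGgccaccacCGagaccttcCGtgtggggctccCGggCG
Il4ra: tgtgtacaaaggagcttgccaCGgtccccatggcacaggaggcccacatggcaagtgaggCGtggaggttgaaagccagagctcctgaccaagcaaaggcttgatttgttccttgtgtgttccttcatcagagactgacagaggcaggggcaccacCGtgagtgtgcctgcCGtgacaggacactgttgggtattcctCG
Socs1: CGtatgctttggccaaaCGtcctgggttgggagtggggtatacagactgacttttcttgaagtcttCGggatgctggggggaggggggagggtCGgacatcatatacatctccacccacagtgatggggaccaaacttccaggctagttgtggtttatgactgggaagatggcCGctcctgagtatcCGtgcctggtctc
Tyk2: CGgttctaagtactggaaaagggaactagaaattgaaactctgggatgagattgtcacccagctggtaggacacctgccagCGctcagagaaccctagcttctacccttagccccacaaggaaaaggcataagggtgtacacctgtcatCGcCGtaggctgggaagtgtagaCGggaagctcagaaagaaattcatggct
Jak1: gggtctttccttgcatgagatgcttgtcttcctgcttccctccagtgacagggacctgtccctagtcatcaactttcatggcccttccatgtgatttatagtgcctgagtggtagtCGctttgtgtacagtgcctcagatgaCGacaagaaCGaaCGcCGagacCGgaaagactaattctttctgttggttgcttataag
Jak2: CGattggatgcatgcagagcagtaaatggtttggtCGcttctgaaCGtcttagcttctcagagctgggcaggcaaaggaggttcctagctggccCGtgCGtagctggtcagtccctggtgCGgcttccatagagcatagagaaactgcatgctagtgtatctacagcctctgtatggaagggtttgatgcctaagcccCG

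STAT proteins bind palindromes of the form TTCNNNGAA, and STAT6 prefers the longer spacing TTCNNNNGAA; each reads the same on both strands. RefSeq promoters of 300 bases, from 250 before to 50 after the start, were found for 9 of the 10 genes, without Socs2. TTCNNNGAA occurred in the promoters of Cish and Socs3, 2 of 9, against 8.30% of 32851 promoters, and TTCNNNNGAA in 0 of 9, against 6.95%. In Cish the 2 matches begin 0 and 11 bases from the start, and in Socs3 the match begins at base -154. Both promoters are shown with the matches in capitals, and they lie at chr9:107296409-107296708 (plus) and chr11:117969317-117969616 (minus). The matches hold no CpG, so methylation was not measured within them. A match of letters is a description and not a binding site.
Cish: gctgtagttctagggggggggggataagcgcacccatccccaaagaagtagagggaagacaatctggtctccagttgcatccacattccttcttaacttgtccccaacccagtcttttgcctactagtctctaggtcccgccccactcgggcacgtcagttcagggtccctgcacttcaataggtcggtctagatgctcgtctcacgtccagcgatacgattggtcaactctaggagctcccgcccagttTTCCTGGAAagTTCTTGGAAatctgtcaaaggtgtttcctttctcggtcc
Socs3: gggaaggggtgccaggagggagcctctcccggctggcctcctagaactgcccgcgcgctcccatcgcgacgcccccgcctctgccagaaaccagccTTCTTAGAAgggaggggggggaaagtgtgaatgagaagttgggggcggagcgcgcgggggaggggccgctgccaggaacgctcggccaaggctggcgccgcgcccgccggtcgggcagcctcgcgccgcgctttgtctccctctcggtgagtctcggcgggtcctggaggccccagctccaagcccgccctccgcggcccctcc

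The starts of the genes were almost free of methylation in every group. The mean of the window nearest the 5′ end in saline mice lay between 0.776% and 4.02% in 9 genes. In Socs3 that window, which lies outside the transcript used here, had 13.3%, and the window over exon 1, chr11:117969001-117970000, had group means of 0.956%, 0.846% and 0.953% in saline, OVA-induced and DSE-treated mice. In OVA vs. saline these 10 windows differed by -0.74 to 0.45 percentage points, and in DSE vs. OVA by -0.55 to 1.97. Away from the starts, levels rose to intermediate values in most genes, and Tyk2 had the highest mean over its windows. In saline mice 29.0% of the 276 windows were under 20% methylation, 59.8% between 20% and 80% and 11.2% over 80%, against 21.6%, 55.2% and 23.2% of all windows.

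**Figure D1:**
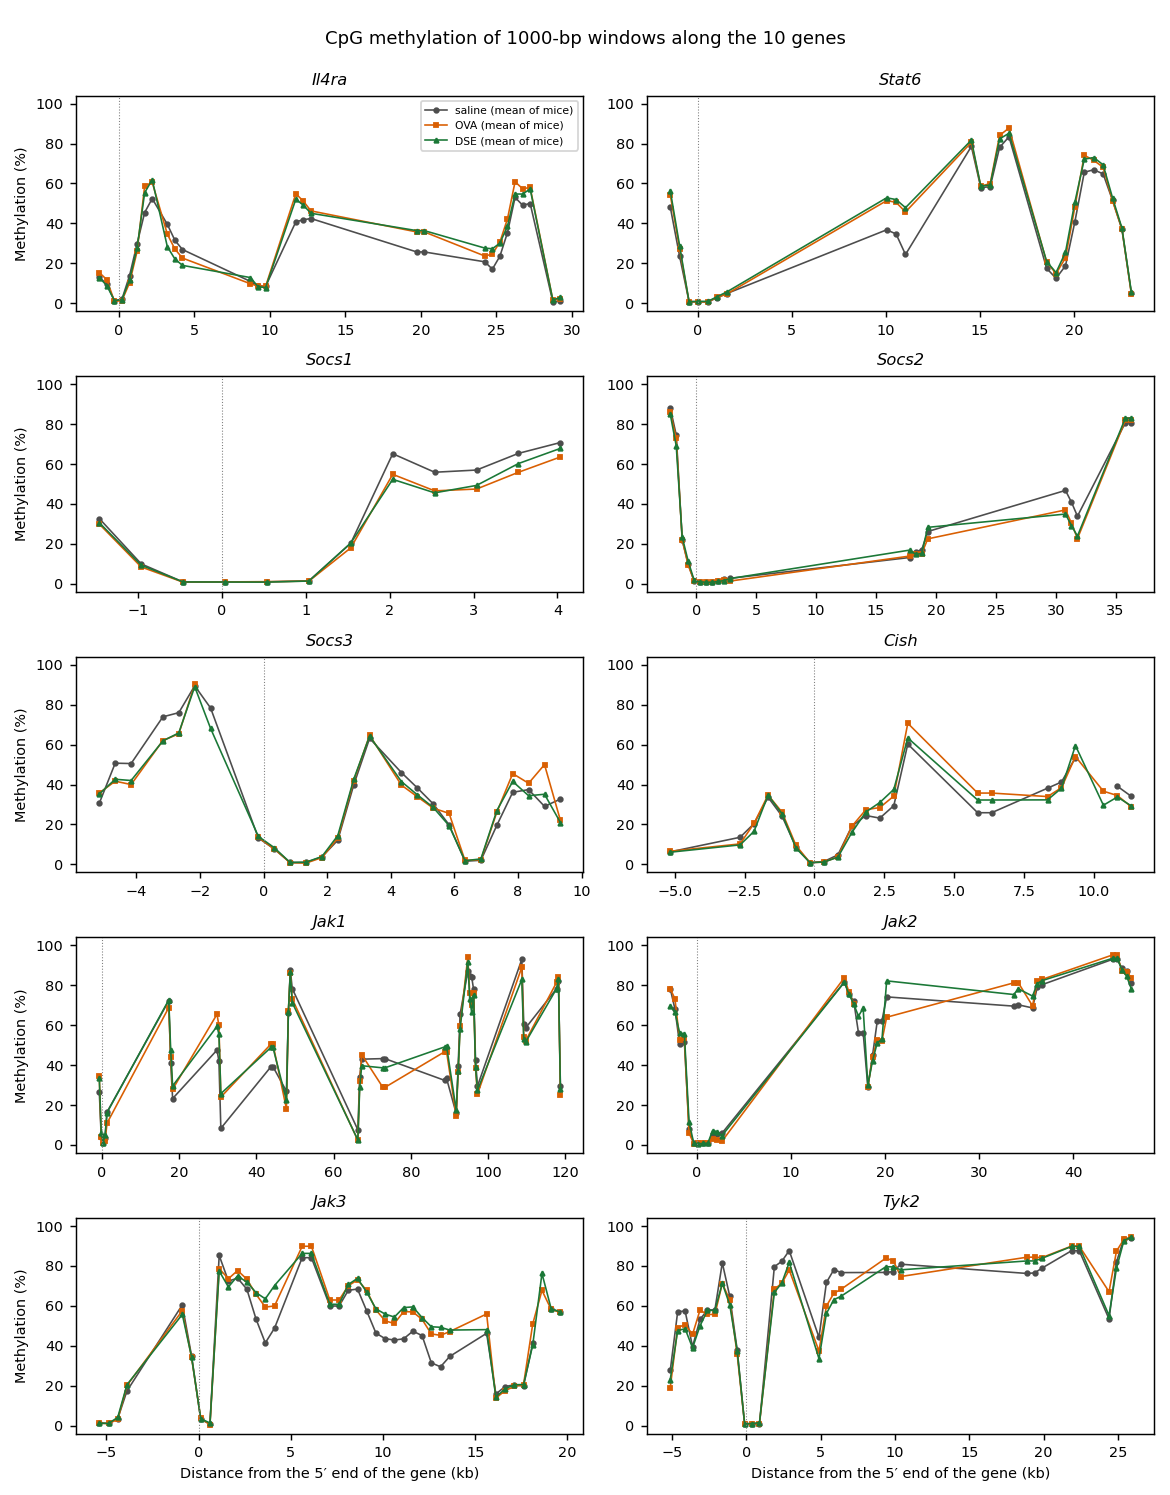
Mean methylation (%) of each group in every window of the 10 genes, against the distance of the window's midpoint from the 5′ end of the gene (kb); points are windows and lines join neighbouring captured windows, also across stretches with none. All 3 groups dip together at the 5′ ends (dotted lines), and they part inside Stat6, Jak3 and Socs1.

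OVA vs. saline compares allergic with control lungs. Of 271 windows tested, 22 were hyper methylated (8.12%) and 12 hypo methylated (4.43%), against 4.75% and 2.56% of all 436201 windows. By limma, 12 passed an adjusted p of 0.05 (4.43%, against 3.04% of all windows). In 99 windows (36.5%, against 26.9%) every OVA-induced mouse lay above or below every saline mouse. The median difference was 0.18 percentage points over the 271 windows and 0.73 over all windows. Relative to that median of all windows, the split was 20 hyper to 17 hypo methylated in place of 22 to 12.

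Jak3 (8 windows), Jak1 (5), Stat6 (3), Il4ra (2), Jak2 (2), Socs3 (1) and Cish (1) held the hyper methylated windows. Jak1 (3), Socs3 (3), Tyk2 (3), Socs2 (2) and Socs1 (1) held the hypo methylated ones. The called windows lay mostly inside the genes. Of 133 windows of the spans outside promoters, 28 were DMRs (21.1%, against 8.74% of windows so placed in any gene). So were 2 of 67 promoter windows (2.99%, against 4.49%) and 4 of 71 flanking windows (5.63%, against 7.94%). The followed windows were placed by their own gene alone, and all windows by any RefSeq gene. As 38 of the followed windows also overlap another gene, such as Nab2 beside Stat6, the classes are not quite the same. Overlapping windows joined into 12 hyper and 7 hypo methylated runs.

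DSE vs. OVA asks what the extract changed in allergic lungs. Of 273 windows, 1 was hyper methylated (0.366%, against 0.898% of all 437460 windows) and 1 hypo methylated (0.366%, against 0.725%). By limma 2 windows passed (0.733%, against 0.361%), and the groups did not overlap in 26 windows (9.52%, against 10.5%). The count of 2 DMR windows was 1 without DSE replicate 1 and 4 without OVA replicate 1. The median difference was -0.026 percentage points, and -0.035 over all windows.

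DSE vs. saline uses the same saline mice as OVA vs. saline. It gave 24 hyper (8.76%, against 4.95% of all 440215 windows) and 15 hypo methylated windows (5.47%, against 3.07%) of 274. By limma 29 passed (10.6%, against 6.36%), and the groups did not overlap in 88 windows (32.1%, against 24.0%). The median difference was 0.19 percentage points, against 0.72 over all windows. Jak3 held 10 hyper methylated windows, Jak1 7, Il4ra 4 and Stat6 3, while Tyk2 held 6 hypo methylated windows. No promoter window of the 67 was a DMR in DSE vs. saline, against 5.19% of the promoter windows of any gene.

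**Figure D2:**
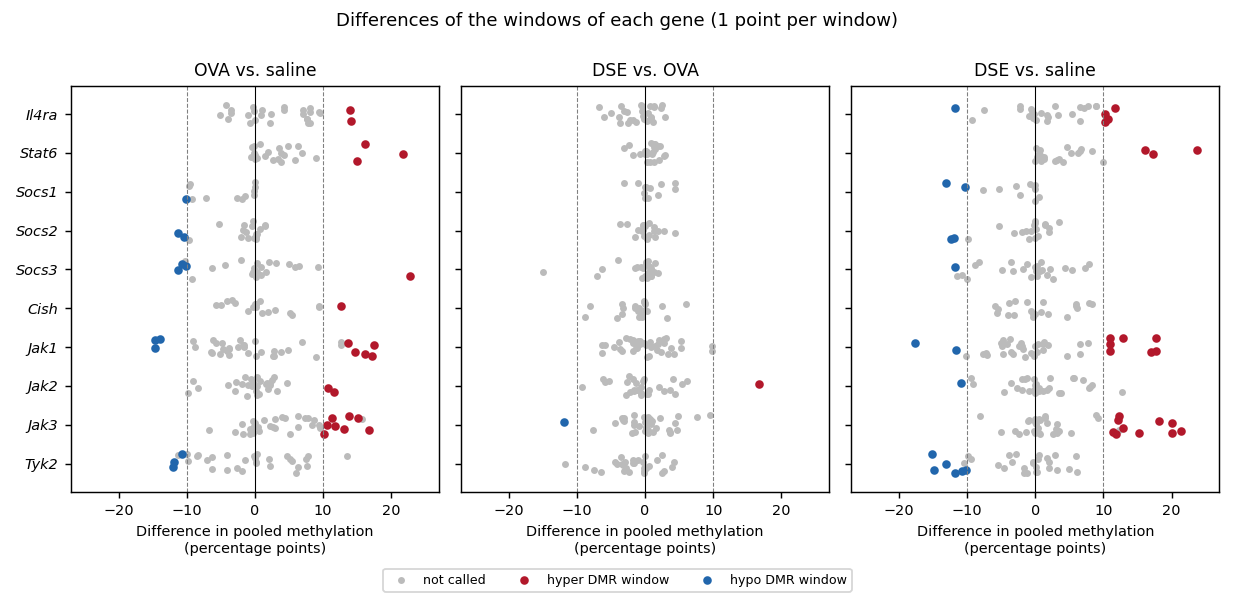
Difference in pooled methylation (percentage points) of every tested window of the 10 genes, 1 point per window, in the 3 comparisons; coloured points are DMR windows and dashed lines mark 10 percentage points. Stat6, Il4ra and Jak3 lean to the right and Socs1 and Socs2 to the left in both comparisons with saline, and 2 points are coloured in DSE vs. OVA.

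The spread between mice limits these calls. With a quasi-binomial F test, which adds an overdispersion term, 0 windows of the 10 genes and 0 of all windows were called in each comparison. At an unadjusted p under 0.05 and 10 percentage points, this test passed 28 (10.3%), 1 (0.366%) and 35 (12.8%) windows of the 10 genes in OVA vs. saline, DSE vs. OVA and DSE vs. saline, against 5.64%, 1.37% and 6.86% of all windows. By limma at an adjusted p of 0.01 and 10 percentage points 0 of their windows and 2, 30 and 254 of all windows were called. At an unadjusted p of 0.05 with that difference limma passed 35 (12.9%), 3 (1.1%) and 38 (13.9%), against 7.86%, 2.11% and 8.17% of all windows. Of the DMR windows, 8 of 34 (23.5%), 0 of 2 and 24 of 39 (61.5%) had a limma adjusted p under 0.05, against 33.3%, 11.2% and 52.9% of all DMR windows. Of the 19, 2 and 18 DMR windows that lead a run, 12, 1 and 9 were no DMR when some single mouse was left out, and these mice are given beside the windows described.

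Mean promoter methylation of some lists of marker genes of blood and lung cells differed between the groups. The 5 pan-leukocyte genes, among them Ptprc, had mean promoter levels of 53.4% to 54.9% in saline, 39.2% to 45.2% in OVA-induced and 39.9% to 44.9% in DSE-treated mice. The 5 eosinophil genes had 55.3% to 59.3%, 51.4% to 54.0% and 47.6% to 53.0%, and the 2 measured macrophage genes of 5 had 57.4% to 59.3%, 51.9% to 53.9% and 51.7% to 53.6%. The 5 smooth muscle genes were higher with OVA, at 26.2% to 28.7%, 32.1% to 35.8% and 33.2% to 36.7%, and the 3 measured endothelial genes of 5 had 29.4% to 33.0%, 34.7% to 38.3% and 32.5% to 34.4%. The groups overlapped for 3 T-cell genes (76.0% to 78.4% in saline), 3 B-cell genes (51.3% to 56.5% in saline) and 6 lung epithelial genes (25.1% to 28.1% in saline), and 0 of 5 neutrophil promoters were measured. Of the 32 single marker promoters, 2 were higher and 5 lower by limma in OVA vs. saline (21.9%, against 6.29% of all genes). In DSE vs. saline 4 were higher and 6 lower (31.25%, against 14.4%), and in DSE vs. OVA 0 passed, against 1.45%. In OVA vs. saline Epx was the only eosinophil promoter that passed, and of the macrophage promoters Spi1 passed but Cd68 did not. Only Myh11 passed among the smooth muscle promoters and only Tek among the endothelial ones. The pan-leukocyte promoters that passed were Ptprc, Cd53 and Lcp2. Methylation of a marker is not its expression. The part of cell composition in the differences of the 10 genes was not tested.

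The receptor gene Il4ra spans chr7:125552271-125579474 (plus strand). At chr7:125553501-125554500, in intron 1, the saline mice had 48.4%, 36.4% and 51.5%, the OVA-induced mice 61.3%, 60.3% and 54.5%, and the DSE-treated mice 49.8%, 52.5%, 52.1% and 67.2%. Every OVA-induced mouse was above the saline mice, whereas the DSE-treated mice overlapped both groups. The pooled difference was 14.1 percentage points in OVA vs. saline (exact permutation test, two-sided p = 0.1, limma adjusted p = 0.185) and -3.81 in DSE vs. OVA. Without saline replicate 2 the first was 9.09 percentage points and no DMR. A second hyper methylated window of intron 1, starting at base 125563501, differed by 13.9 percentage points and its groups overlapped.

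In exon 11, the last exon of Il4ra, the window chr7:125576501-125577500 was low in saline mice, at 15.4%, 18.2% and 17.5%. It had 24.7%, 27.2% and 21.9% in OVA-induced and 24.5%, 29.3%, 26.0% and 29.3% in DSE-treated mice. All 7 mice that received OVA lay above the saline mice. The difference was 7.70 percentage points in OVA vs. saline (limma adjusted p = 0.065) and 10.2 in DSE vs. saline (limma adjusted p = 0.019), where it was no DMR without saline replicate 1 (9.43), DSE replicate 2 or DSE replicate 4. At chr7:125555001-125556000, in intron 1, the order was the opposite: 45.3%, 34.7% and 38.5% in saline, 36.0%, 35.3% and 32.6% in OVA-induced and 33.7%, 26.3%, 31.1% and 22.1% in DSE-treated mice. That window was hypo methylated in DSE vs. saline, with a difference of -11.8 percentage points and a limma adjusted p of 0.082, but not without saline replicate 1 (-9.15) or DSE replicate 4.

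The locus level of a gene is the mean over its windows with 20 or more calls in all 10 mice, taken per mouse and tested with limma across 37262 genes. For Il4ra it was 26.7%, 24.0% and 26.4% in saline, 29.5%, 29.2% and 29.2% in OVA-induced and 28.0%, 29.7%, 28.2% and 27.6% in DSE-treated mice. Both OVA groups lay above saline. The difference was 3.58 ± 0.827 percentage points (SE) in OVA vs. saline, with a limma adjusted p of 0.0315, and 2.61 ± 0.774 in DSE vs. saline, with 0.0508. With each of the 6 mice left out in turn, the first call held only without saline replicate 1 (0.0466), and its adjusted p reached 0.0888 without OVA replicate 3. On M-values of the calls pooled over non-overlapping windows only, it was 0.286. The promoter level, over windows within 1000 bp of a start site, did not pass in any comparison (-0.66 in OVA vs. saline, limma adjusted p = 0.693).

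**Figure D3:**
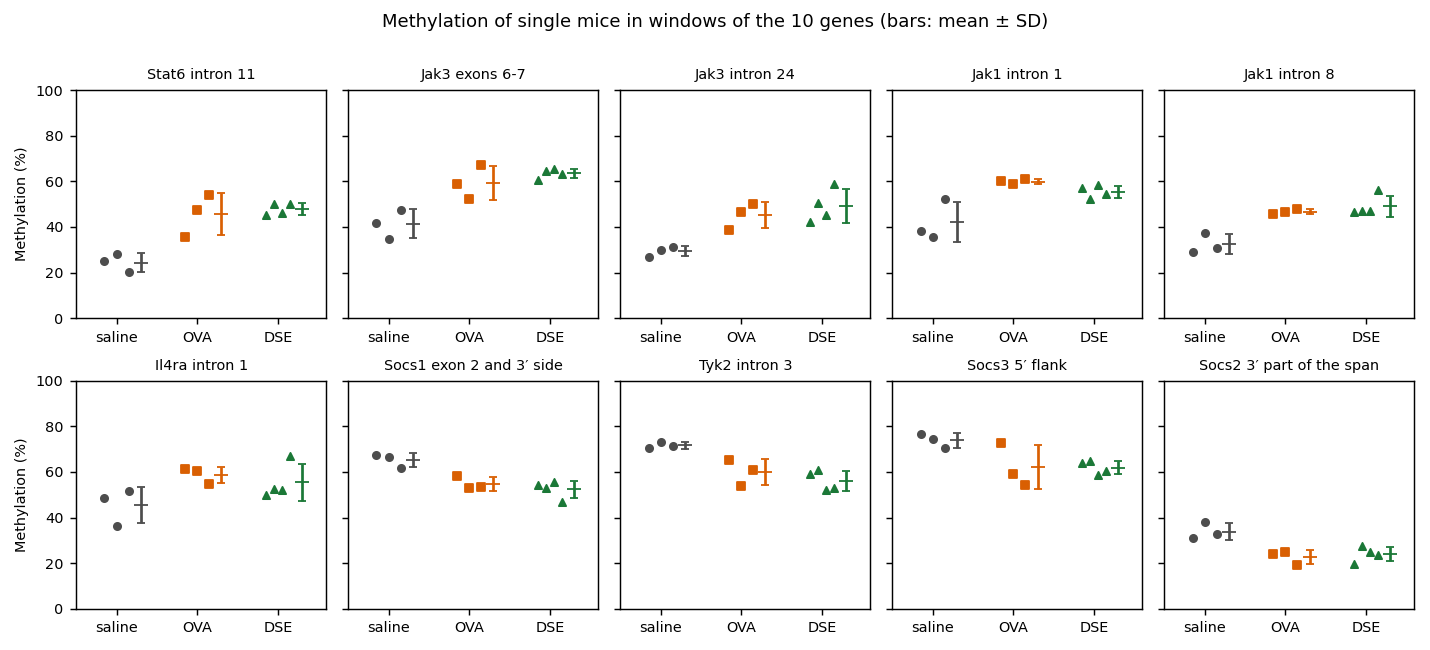
Methylation (%) of single mice in 10 windows of the genes, by group; the horizontal marks and bars are the mean ± SD of 3 saline, 3 OVA-induced and 4 DSE-treated mice. In the windows of Stat6, Jak3 and Jak1 the OVA-induced and DSE-treated mice lie above saline, and in Socs1, Tyk2 and Socs2 below it.

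JAK1 sits on the IL-4 receptor chain and on many other cytokine receptors. Its gene spans chr4:101151974-101265282 (minus strand), with windows both above and below saline. In intron 1, chr4:101234501-101235500 had 38.4%, 35.7% and 52.1% in saline, 59.9%, 58.8% and 60.9% in OVA-induced and 57.0%, 52.2%, 58.3% and 54.5% in DSE-treated mice. The 3 groups did not overlap, although saline replicate 3 at 52.1% came next to the lowest DSE-treated mouse. The difference was 17.5 percentage points in OVA vs. saline (limma adjusted p = 0.047), -4.62 in DSE vs. OVA (limma adjusted p = 0.80) and 12.8 in DSE vs. saline (limma adjusted p = 0.063).

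Intron 8 of Jak1, at chr4:101176001-101177000, rose from 29.0%, 37.3% and 30.8% in saline to 45.7%, 46.5% and 47.9% in OVA-induced mice, and the DSE-treated mice had 46.7%, 46.8%, 47.0% and 56.0%. No mouse with OVA overlapped saline. The difference was 14.6 percentage points in OVA vs. saline (limma adjusted p = 0.048) and 17.6 in DSE vs. saline (0.019). Intron 11, at chr4:101169001-101170000, was hypo methylated: 78.4%, 90.2% and 84.3% in saline against 68.6%, 67.0% and 75.0% in OVA-induced and 64.9%, 64.9%, 62.2% and 73.8% in DSE-treated mice. These differences were -14.0 (limma adjusted p = 0.073) and -17.6 percentage points (limma adjusted p = 0.027), and the first was no DMR without saline replicate 2 (-10.8).

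The promoter level of Jak1 was the only one of the 10 that passed in OVA vs. saline, and also in DSE vs. OVA, among 29085 genes of which 6.29% and 1.45% passed. It was 19.9%, 19.9% and 19.5% in saline, 16.4%, 14.3% and 16.5% in OVA-induced and 19.3%, 19.9%, 20.3% and 20.001% in DSE-treated mice. The OVA-induced mice were lower than all other mice, and the DSE-treated mice overlapped saline. The difference was -4.02 ± 0.684 percentage points (SE) in OVA vs. saline (limma adjusted p = 0.0147) and 4.13 ± 0.640 in DSE vs. OVA (limma adjusted p = 0.0199). Both comparisons use the same OVA-induced mice. The first call was lost without saline replicate 2 (0.0545) and on M-values of the pooled calls (0.192). The second was lost without DSE replicate 2, DSE replicate 3 (0.0628), OVA replicate 1 or OVA replicate 3.

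The values behind that promoter level came from few places. At an internal start site, chr4:101191501-101192500 and the next window held identical calls, so the same CpGs count in both: 44.8%, 41.2% and 43.8% in saline, 34.1%, 20.5% and 31.9% in OVA-induced, and 34.8%, 37.8%, 41.6% and 40.4% in DSE-treated mice. The OVA-induced mice were the lowest, though the nearest mice of the 2 OVA groups were 34.1% and 34.8%. The difference was -14.6 percentage points in OVA vs. saline, a DMR with a limma adjusted p of 0.071, and 9.80 in DSE vs. OVA, which was not a DMR (limma adjusted p = 0.363). Without OVA replicate 2 they were -10.2, no longer a DMR, and 5.37. In intron 1, chr4:101263501-101264500 had a mean of 16.5% ± 2.19 (SD, n = 3) in saline, 10.9% ± 0.939 (SD, n = 3) in OVA-induced and 16.2% ± 3.46 (SD, n = 4) in DSE-treated mice, with no DMR. The window over the main 5′ end stayed under 6% in every group mean.

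JAK2 signals from several cytokine and growth factor receptors, and its gene spans chr19:29251803-29313095 (plus strand). The largest OVA vs. saline difference was at chr19:29285001-29286000 in intron 8: 70.7%, 70.7% and 67.4% in saline, 82.5%, 79.0% and 82.2% in OVA-induced and 72.0%, 74.3%, 77.6% and 77.6% in DSE-treated mice. The DSE-treated mice lay between the other groups without overlap. The difference was 11.6 percentage points in OVA vs. saline (limma adjusted p = 0.032), and -5.91 in DSE vs. OVA (limma adjusted p = 0.332), which was no DMR. Without saline replicate 3 the first was 10.4 and no DMR either. In the window chr19:29270501-29271500, around exon 3, the mean fell from 62.1% ± 1.04 (SD, n = 3) in saline to 51.2% ± 2.31 (SD, n = 4) in DSE-treated mice, a difference of -10.9 percentage points (limma adjusted p = 0.029), with 52.8% ± 2.94 (SD, n = 3) in OVA-induced mice. It was no DMR without DSE replicate 4 (-9.78).

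The only hyper methylated window of DSE vs. OVA was chr19:29271501-29272500 in Jak2 intron 3. The saline mice had 66.2%, 77.2% and 79.2%, the OVA-induced mice 56.1%, 74.4% and 61.5% and the DSE-treated mice 84.5%, 81.2%, 82.6% and 80.6%. The DSE-treated mice lay above every other mouse, and saline and OVA-induced mice overlapped. The difference in DSE vs. OVA was 16.7 percentage points, with a two-sided exact permutation p of 0.0571 and a limma adjusted p of 0.115.

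In intron 1 of Jak2, just inside the unmethylated start region, small differences passed limma in both comparisons with OVA-induced mice. These windows were named after their values were seen. At chr19:29253001-29254000 the saline mice had 5.46%, 6.10% and 5.27%, the OVA-induced mice 3.50%, 2.92% and 2.03% and the DSE-treated mice 9.06%, 6.71%, 6.41% and 6.81%. The 3 groups did not overlap. The difference was -2.72 percentage points in OVA vs. saline (limma adjusted p = 0.041) and 4.44 in DSE vs. OVA (limma adjusted p = 0.0298). The next window, chr19:29253501-29254500, which shares CpGs with it, differed by -2.95 (limma adjusted p = 0.030) and 4.05 percentage points (limma adjusted p = 0.0267), and these were the 2 windows that passed limma in DSE vs. OVA. Another overlapping window, starting at base 29254001, differed by -3.97 (limma adjusted p = 0.026) and 2.77 (limma adjusted p = 0.055). All are below the 10 percentage points of a DMR. The promoter level of Jak2 differed by -0.29 and 1.59 percentage points (limma adjusted p = 0.821 and 0.243). The promoter level of Jak2 was also read on M-values of the pooled calls, which weigh low levels more and use non-overlapping windows only. It passed there in DSE vs. OVA (limma adjusted p = 0.00057) and in DSE vs. saline (0.0042).

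**Figure D4:**
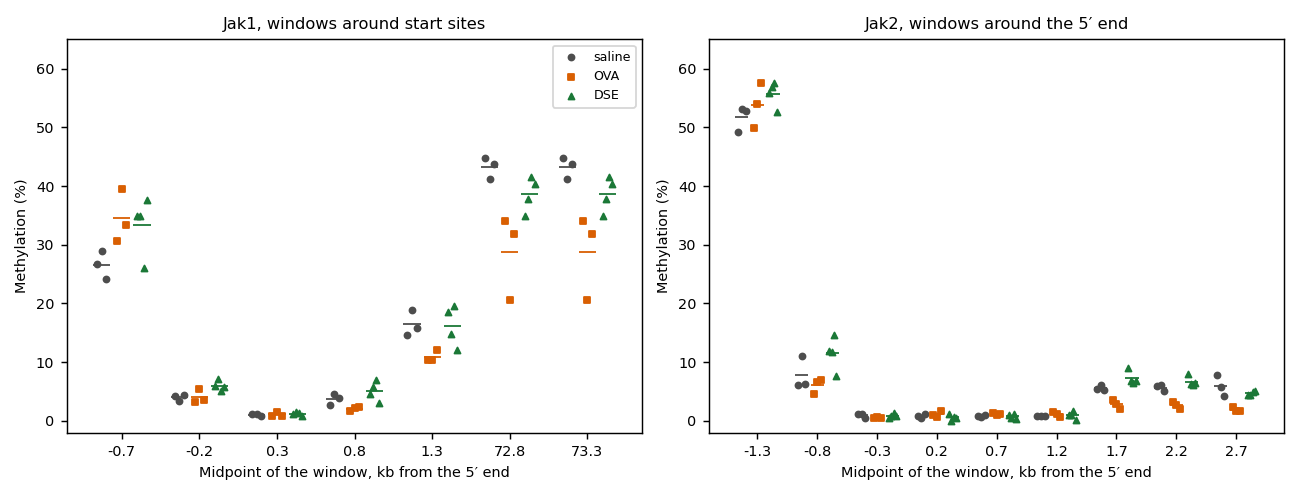
Methylation (%) of single mice in the promoter windows of Jak1 and the windows at the 5′ end of Jak2, against the midpoint of the window (kb from the 5′ end, not to scale); horizontal lines are group means. In Jak1 the 2 rightmost positions hold the same calls and OVA-induced mice are lowest there; in Jak2 the 3 rightmost positions show OVA-induced mice below the others, all under 10%.

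JAK3 pairs with the common gamma chain, which carries the type of IL-4 receptor found on lymphocytes. Its gene, chr8:71676383-71690577 (plus strand), held 8 DMR windows in OVA vs. saline, as did Jak1, and in Jak3 all 8 were hyper methylated. At chr8:71679501-71680500, over exons 6 and 7, the saline mice had 41.8%, 34.8% and 47.6%, the OVA-induced mice 58.9%, 52.1% and 67.1% and the DSE-treated mice 60.6%, 64.4%, 65.6% and 63.4%. This window holds 59 CpGs and at least 1224 calls per mouse. All 7 mice with OVA were above saline. The difference was 16.7 percentage points in OVA vs. saline (limma adjusted p = 0.055), 4.70 in DSE vs. OVA (limma adjusted p = 0.835) and 21.4 in DSE vs. saline (limma adjusted p = 0.019).

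Further along Jak3, chr8:71685501-71686500 (exons 19 to 21) and chr8:71687001-71688000 (exon 23) were hyper methylated by 11.3 and 13.0 percentage points in OVA vs. saline, and by 11.8 and 15.3 in DSE vs. saline. In both windows all mice with OVA lay above saline, and the first was no DMR in OVA vs. saline without OVA replicate 2 (9.60). At chr8:71689001-71690000, in intron 24 and also over Insl3, a peptide hormone gene, the saline mice had 26.9%, 30.1% and 31.3%, the OVA-induced mice 38.7%, 46.7% and 50.2% and the DSE-treated mice 42.1%, 50.5%, 45.4% and 59.0%. Again all mice with OVA were higher. These differences were 15.1 (limma adjusted p = 0.076) and 19.98 percentage points (limma adjusted p = 0.025).

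The only hypo methylated window of DSE vs. OVA lay in the 3′ flank of Jak3, over B3gnt3, at chr8:71694001-71695000. It differed by -11.9 percentage points, the mice of the groups overlapped (OVA-induced 44.6%, 51.5% and 56.8%, DSE-treated 31.9%, 51.2%, 51.6% and 26.7%), and its limma adjusted p was 0.678. It was no DMR without DSE replicate 1 (-8.04), DSE replicate 4 or OVA replicate 3. The locus level of Jak3 was 43.2%, 43.4% and 44.1% in saline, 46.5%, 48.4% and 50.3% in OVA-induced and 45.2%, 50.05%, 48.5% and 49.8% in DSE-treated mice. It differed by 4.82 ± 1.37 percentage points (SE) in OVA vs. saline (limma adjusted p = 0.0559) and by 4.83 ± 1.28 in DSE vs. saline (limma adjusted p = 0.0362). With each of the 7 mice left out in turn, the latter call held only without DSE replicate 1 (0.0128), and its adjusted p reached 0.105 without saline replicate 2.

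TYK2, which sits with JAK1 on the receptor that both IL-4 and IL-13 use, differed the other way. At chr9:21125501-21126500, in intron 3 of the gene (chr9:21104068-21131393, minus strand), the saline mice had 70.3%, 73.3% and 71.5%, the OVA-induced mice 65.1%, 53.9% and 60.6% and the DSE-treated mice 58.9%, 60.9%, 51.9% and 53.0%. No mouse with OVA reached a saline mouse. The difference was -11.9 percentage points in OVA vs. saline (limma adjusted p = 0.081) and -15.2 in DSE vs. saline (limma adjusted p = 0.025), and the first was no DMR without OVA replicate 2 (-8.70). A window around exon 2, chr9:21128501-21129500, was hypo methylated in both comparisons with saline (a difference of -10.7 percentage points in each). In OVA vs. saline it was no DMR without saline replicate 1 (-9.35), OVA replicate 2 or OVA replicate 3. The overlapping window chr9:21129001-21130000 led that run in DSE vs. saline (-13.1 percentage points, limma adjusted p = 0.086). It was no DMR there without DSE replicate 2 (-10.2), saline replicate 1 or saline replicate 3. A window of the 5′ flank, at chr9:21132501-21133500, was hypo methylated in DSE vs. saline (-10.2 percentage points), and no group with OVA overlapped saline in it. That call was lost without saline replicate 3 (-8.21), saline replicate 1, DSE replicate 2 or DSE replicate 3.

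The largest difference of Tyk2 in OVA vs. saline was no DMR. At chr9:21106501-21107500, with 38 to 63 calls per mouse, the saline mice had 61.4%, 48.9% and 50%, the OVA-induced mice 67.5%, 73.7% and 60% and the DSE-treated mice 50.8%, 59.3%, 59.6% and 50.9%. OVA-induced mice were above the DSE-treated mice but overlapped saline, and the differences were 13.5 and -11.8 percentage points (limma adjusted p = 0.131 and 0.385). The locus level of Tyk2 was 63.4%, 62.7% and 63.5% in saline, 61.9%, 61.2% and 61.8% in OVA-induced and 60.6%, 59.3%, 60.7% and 59.4% in DSE-treated mice, so that the groups did not overlap. It differed by -1.57 ± 0.726 percentage points (SE) in OVA vs. saline (limma adjusted p = 0.188) and -3.18 ± 0.679 in DSE vs. saline (limma adjusted p = 0.0183). The latter call was lost without DSE replicate 4, saline replicate 1 (0.0551), saline replicate 2 or saline replicate 3. On M-values of the pooled calls the sign turned (0.0787, limma adjusted p = 0.435).

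**Figure D5:**
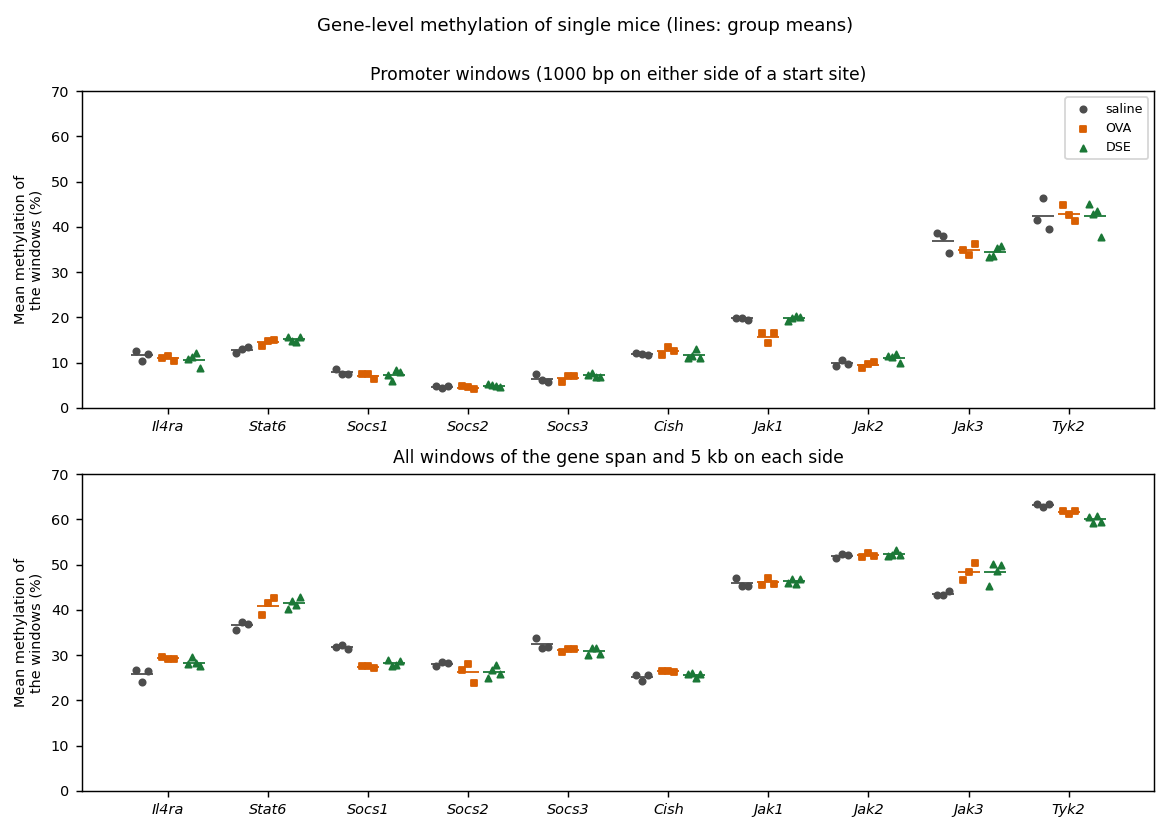
Mean methylation (%) of single mice over the promoter windows (top) and over all windows (bottom) of each gene; horizontal lines are group means. At the promoters the OVA-induced mice part from the others in Jak1, and over all windows Il4ra, Stat6 and Jak3 are higher and Socs1 lower in both groups with OVA than in saline.

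STAT6 carries the IL-4 and IL-13 signal to the nucleus, and its gene spans chr10:127642955-127660987 (plus strand). The window chr10:127653501-127654500, in intron 11, had the largest difference of the 10 genes among windows with 20 or more calls in every mouse. The saline mice had 24.9%, 28.2% and 20.1%, the OVA-induced mice 35.7%, 47.2% and 54.2% and the DSE-treated mice 45.1%, 50%, 46.2% and 50.1%. All mice with OVA lay above saline, and the DSE-treated mice fell within the range of the OVA-induced mice. The difference was 21.7 percentage points in OVA vs. saline (limma adjusted p = 0.035), 2.01 in DSE vs. OVA (limma adjusted p = 0.934) and 23.7 in DSE vs. saline (limma adjusted p = 0.016).

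The locus level of Stat6 was 35.5%, 37.3% and 36.9% in saline, 38.8%, 41.5% and 42.5% in OVA-induced and 40.2%, 42.0%, 41.1% and 42.9% in DSE-treated mice. Of its 25 windows, 13 overlap the gene span. The windows of the 3′ flank also lie over Nab2 and differed by -0.59 to 8.99 percentage points in OVA vs. saline. In the locus level, saline was below every other mouse. It differed by 4.37 ± 1.09 percentage points (SE) in OVA vs. saline (limma adjusted p = 0.0386) and 4.999 ± 1.02 in DSE vs. saline (limma adjusted p = 0.0160). With each mouse left out in turn, the first call held only without OVA replicate 1 (0.0174), reached 0.124 without OVA replicate 3, and was 0.0723 on M-values of the pooled calls. The second was lost only without saline replicate 1 (0.0527).

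The promoter level of Stat6 was 12.1%, 12.9% and 13.4% in saline, 13.6%, 14.7% and 15.05% in OVA-induced and 15.7%, 14.7%, 14.6% and 15.6% in DSE-treated mice. It was the only promoter of the 10 that passed in DSE vs. saline, where 14.4% of all genes did, with a difference of 2.38 ± 0.551 percentage points (SE) and a limma adjusted p of 0.0232. The call was lost without DSE replicate 4, saline replicate 1 (0.0794) or saline replicate 2, and on M-values of the pooled calls (0.210).

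SOCS1 blocks JAK kinases and restrains IL-4 and interferon signals. Its small gene, chr16:10783808-10785536 (minus strand), had the same unmethylated start in every group and lower methylation at its 3′ end in mice with OVA. At chr16:10783001-10784000, over the end of exon 2 and the sequence after it, the saline mice had 67.4%, 66.5% and 61.6%, the OVA-induced mice 58.4%, 52.9% and 53.3% and the DSE-treated mice 54.4%, 52.9%, 55.4% and 46.7%. The mice with OVA did not overlap saline. The difference was -10.1 percentage points in OVA vs. saline (limma adjusted p = 0.091) and -13.1 in DSE vs. saline (limma adjusted p = 0.032). The first was a DMR only without OVA replicate 1 or saline replicate 3, and it was the smallest, -8.80, without saline replicate 1.

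The locus level of Socs1 was 31.7%, 32.3% and 31.4% in saline, 27.5%, 27.5% and 27.2% in OVA-induced and 28.9%, 27.7%, 27.9% and 28.8% in DSE-treated mice. The 3 groups did not overlap. It differed by -4.39 ± 0.560 percentage points (SE) in OVA vs. saline (limma adjusted p = 0.0088), by 0.90 ± 0.524 in DSE vs. OVA (limma adjusted p = 0.693) and by -3.49 ± 0.524 in DSE vs. saline (limma adjusted p = 0.0067). Both calls against saline held with each mouse left out in turn, the highest adjusted p being 0.0334 and 0.0323. On M-values of the pooled calls, in which deep windows weigh more and only non-overlapping windows enter, they were lost (0.292 and 0.570).

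SOCS2, known as a brake on growth hormone signals, was hypo methylated far from its start, in the 3′ part of the span chr10:95383903-95417321 (minus strand) that the transcript used here does not cover. At chr10:95385001-95386000 the saline mice had 31.0%, 38.0% and 32.7%, the OVA-induced mice 23.8%, 24.9% and 19.2% and the DSE-treated mice 19.8%, 27.3%, 24.9% and 23.5%. Saline was above all other mice. The difference was -11.3 percentage points in OVA vs. saline (limma adjusted p = 0.066), no DMR without saline replicate 2 (-9.34) or OVA replicate 3, and -9.84 in DSE vs. saline. A window of the same stretch, at chr10:95386001-95387000, was hypo methylated in DSE vs. saline by a difference of -12.4 percentage points (limma adjusted p = 0.068), also without overlap.

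SOCS3, the inhibitor of IL-6 type signals, differed upstream of its gene (chr11:117966079-117970336, minus strand). At chr11:117973001-117974000, in the 5′ flank, the saline mice had 76.8%, 74.6% and 70.4%, the OVA-induced mice 72.8%, 59.1% and 54.3% and the DSE-treated mice 63.9%, 64.6%, 58.5% and 60.5%. OVA replicate 1 lay within the saline mice, whereas no DSE-treated mouse did. The difference was -11.2 percentage points in OVA vs. saline (limma adjusted p = 0.149) and -11.7 in DSE vs. saline (limma adjusted p = 0.095), and the first was no DMR without OVA replicate 3 (-7.92), OVA replicate 2 or saline replicate 1. The one hyper methylated window of Socs3, chr11:117961001-117962000, differed by 22.7 percentage points but had 18 to 81 calls per mouse, and OVA replicate 2 with too few calls was not used. It was no DMR without saline replicate 3 (16.7), and without either other OVA-induced mouse it could not be tested.

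CISH, which dampens STAT5 signals and was the other promoter with matches to TTCNNNGAA, had 1 hyper methylated window in OVA vs. saline. At chr9:107299501-107300500, over exon 2 of the gene (chr9:107296659-107302784, plus strand), the OVA-induced mice had 79.4%, 78.7% and 54.0% and overlapped the saline mice at 59.4%, 56.5% and 64.9%. The difference was 12.7 percentage points (limma adjusted p = 0.378), and it was no DMR without OVA replicate 2 (8.97), OVA replicate 1 or saline replicate 2. The promoter levels of Cish and Socs3 differed by 0.62 and 0.10 percentage points in OVA vs. saline (limma adjusted p = 0.602 and 0.932) and by -0.92 and 0.58 in DSE vs. OVA (limma adjusted p = 0.592 and 0.707).

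Across the 10 genes, the locus level passed for 3 in OVA vs. saline (Il4ra, Stat6 and Socs1), against 9.56% of all genes, for 0 in DSE vs. OVA, against 0.0644%, and for 4 in DSE vs. saline (Stat6, Socs1, Jak3 and Tyk2), against 15%. At an unadjusted p under 0.05, limma gave 4, 1 and 5 of the 10 genes. The share of all genes at that p was not taken, so these counts have nothing to be set against. The median locus difference of the 10 genes was 0.12, 0.06 and 0.38 percentage points in the 3 comparisons, against 1.01, -0.03 and 1.02 over all genes. TTCNNNGAA occurred in 103 of the 276 windows (37.3%, against 26.9% of all windows) and TTCNNNNGAA in 49 (17.8%, against 23.7%). Of the 34 DMR windows of OVA vs. saline, 9 held the first (26.5%) and 4 the second (11.8%). The share among the DMR windows of all genes was not taken, so these counts are a description only.

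Other genes of the pathway were read in the same way, as 6 lists. At the promoter, 4 of 34 measured genes (11.8%, against 6.29% of all genes) were lower and 0 higher in OVA vs. saline: the transcription factors Stat5a (-5.56 percentage points, limma adjusted p = 0.027) and Stat5b (-3.61, 0.032), and the phosphatases Ptpn6 (-9.46, 0.018) and Ptprc (-18.1, 0.008). Ptprc is also among the pan-leukocyte genes described above, with the same values, so it is not a separate result. In DSE vs. OVA 0 of 34 passed, against 1.45% of all genes. In DSE vs. saline 5 of 34 were lower (the same 4 and Pias1). Of all 29085 genes 4197 passed there in either direction (14.4%), and 3206 of these were higher. The 14.4% is therefore not the share of lower promoters. At the locus level 4 of 39 genes were higher and 5 lower in OVA vs. saline (23.1% in all, against 9.56% of all genes), 0 passed in DSE vs. OVA, against 0.0644%, and 5 were higher and 4 lower in DSE vs. saline (23.1% in all, against 15%). Among the ligands, Il4 was lower (-4.25 percentage points, limma adjusted p = 0.028) and Il13 higher (3.07, 0.035) in OVA vs. saline. Of the 11 measured STAT6 target genes, Clca1 and Spdef were higher and Mrc1 lower, and of the 4 other SOCS genes none passed.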

How the data were processed

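Captured bisulfite libraries (SureSelect Methyl-seq) from the lungs of 3 saline, 3 OVA-induced and 4 DSE-treated mice were analysed. The deposited values are counts made by the authors with Bismark on mm10 and methylKit: CpG calls, and how many were methylated, in 1000-bp windows that start every 500 bp, without normalization. The submitters' processing notes list cutadapt 1.10, Bismark 0.19.0 and methylKit 1.0.0. The labels give no batch and do not say whether replicate numbers mark anything shared. The group labelled Herb was read as DSE, the only herbal treatment of the study.

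The 10 genes, the gene lists and the tests were chosen with earlier results of these data known. Gene spans, start sites and sequence came from RefSeq on GRCm38.p6, and promoters from a RefSeq table. A mouse counted in a window at 20 or more calls, and a window needed 2 such mice per group. DMR windows came from a logistic model of the pooled calls of the 2 groups, with a likelihood ratio test, Benjamini-Hochberg adjustment over all windows of the series and thresholds of 0.01 and 10 percentage points. M-values were log2 of methylated over unmethylated calls, each plus a pseudocount of 1. For genes they were taken on calls pooled over non-overlapping windows only, so scale, weighting and the set of windows all differ from the main gene levels. limma 3.58.1 (R 4.3.3) was fitted to all 10 mice, over all windows or all genes, and its adjusted p counted at 0.05. Exact permutation tests were two-sided (SciPy 1.17.1, NumPy 2.4.6, Python 3.11.15). The scripts were tested on simulated data. Printed differences of windows are of pooled calls, so they can deviate from those of the means over mice. Calls of 1 molecule are not independent, and precision from counting alone is not given.

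The windows named are, for each gene, the one nearest the 5′ end, those that differed most in OVA vs. saline and those that differed most in DSE vs. OVA, and the leading window of each run of DMRs. Windows where the groups do not overlap are given in detail. The Jak2 intron 1 windows and the Jak1 window at base 101263501 were named after their values were seen. Alternatives were other call minimums, all mice covered, a quasi-binomial F test, limma on M-values, 20 percentage points, non-overlapping windows, unweighted means, calls scaled to equal depth, spans without flanks, a replicate block and each mouse left out. Windows in no other gene and differences relative to the median of all windows were chosen after seeing the data. RNA-seq of the study was not analysed here, and 1 promoter result of the pathway lists is not reported here.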

Additional observations from a re-analysis of the deposited data

Results flagged for a closer look

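Among the 4 DSE-treated mice, 65 values of the named windows were tested for a mouse far from the other 3 (a gap to the nearest mouse that is large against the whole range of the 4). Chance alone gives about 1 in 20 such values, and 7 were found, of which neighbouring windows share calls. DSE replicate 4 was high in both neighbouring windows of Il4ra intron 1, with 67.2% against 49.8% to 52.5% and 71.3% against 57.4% to 59.7% in the other mice. It was also high in Jak1, with 56.0% against 46.7% to 47.0% in intron 8 and 40.5% against 19.4% to 21.7% in the window of intron 1 that starts at base 101234001. DSE replicate 2 was low in the neighbouring windows of Tyk2 around exon 2, with 62.3% against 73.6% to 75.5% and 57.6% against 68.8% to 70.9%. DSE replicate 3 was low in exon 2 of Cish, with 50.6% against 66.4% to 69.4%.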

How the results depend on the processing

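The windows called in OVA vs. saline, DSE vs. OVA and DSE vs. saline were 34, 2 and 39. They were 0, 0 and 0 with the quasi-binomial F test and also with limma at an adjusted p of 0.01 and 10 percentage points, 2, 0 and 3 at a difference of at least 20 percentage points, and 18, 1 and 18 over non-overlapping windows, where fewer windows are counted. With limma at 0.05 they were 12, 2 and 29. In DSE vs. OVA 1 window was left within spans without flanks and 1 among windows in no other gene. With each mouse left out the counts were 27 to 43, 1 to 4 and 30 to 44. The genes whose promoter level passed (1, 1 and 1) became 0, 2 (Jak1 and Jak2) and 1 (Jak2 in place of Stat6) on M-values of the pooled calls, and 0 to 1 in each comparison with a mouse left out. The genes whose locus level passed (3, 0 and 4) became 0, 2 (Socs2 and Jak2) and 3 (Stat6, Jak3 and Jak2) on M-values, and 1 to 3, 0 and 1 to 4 with a mouse left out. The locus difference of Tyk2 in DSE vs. saline turned to 0.0787 on M-values, and the locus differences of Socs2 and Jak2 in DSE vs. OVA, which passed on M-values alone, ranged from -1.02 to 1.00 and from -0.013 to 0.57 percentage points with a mouse left out; the cause was not tested. Of 735 differences of named windows under the alternatives, 730 moved by less than 1 SD, 5 moved by more and 0 changed sign as a DMR. Most of these alternatives leave out 1 mouse, which can seldom move a mean by 1 SD, so the count cannot show that the calls are stable. Of the 19, 2 and 18 DMR windows that lead a run, 12, 1 and 9 were lost without some mouse. Deviations of mice with the same replicate number correlated at -0.027 to 0.078 over 9 pairs, and of mice with other numbers at -0.057 to 0.043 over 24 pairs. None was over 0.1, but such correlations cannot tell whether the numbers mark anything shared. With a replicate block, to which DSE replicate 4 adds nothing because no other mouse has its number, the windows called were 34, 1 and 37, the promoters 1 (Jak1), 0 and 0 and the loci 2, 0 and 2 (Stat6 and Socs1 in both), so that the calls of Jak1 in DSE vs. OVA (adjusted p = 0.0903), the Stat6 promoter (0.0933) and the Il4ra (0.0810), Jak3 and Tyk2 (0.0750 each) loci were lost. Relative to the median of all windows, DSE vs. saline had 21 hyper to 20 hypo methylated windows in place of 24 to 15. With 3 or 4 mice per group, differences smaller than the spread between mice were not detectable.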
